A study of Homo sapiens with 12 samples.

Results

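Lenalidomide was compared with no drug in My5.CRBN cells that also carried AGO2 (EIF2C2) cDNA, on 2 of the 12 arrays of the study. The members are all assays for human miRNAs on the miScript miRNA PCR Array, 372 in number, and 359 of them gave a value or a bound in this comparison. OCI-My5 is a human multiple myeloma (MM) cell line with a low level of CRBN. My5.CRBN is OCI-My5 infected with a lentivirus that carries His-tagged CRBN cDNA, and My5.LV is the same line with the lentiviral vector alone. Both arrays compared here therefore share the CRBN vector and a second lentivirus, pCDH.puro with epitope-tagged AGO2 cDNA. By their labels they differ in 72 hours of 10 μM lenalidomide. Each condition has 1 array of 1 RNA sample, so no difference has a replicate check and no p-value is given.

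The model has limits that the array cannot settle. Cells with the empty AGO2 vector are not analysed here, and the labels do not say whether the array without drug had vehicle. They also do not say how long after AGO2 cDNA infection the RNA of either array was taken, so this time may differ too. Neither AGO2 nor CRBN is an assay on the array, so the overexpression could not be checked from these data. The array holds 12 control wells beside the miRNAs. Fewer cells that express a miRNA and less of it per cell cannot be told apart in such bulk RNA.

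Lenalidomide is an immunomodulatory drug (IMiD) that binds CRBN, the substrate receptor of an E3 ubiquitin ligase, and the CRBN-high My5.CRBN cells are IMiD-sensitive whereas the My5.LV cells are resistant. AGO2 is the Argonaute protein that holds a mature miRNA and uses its seed, the first bases after the 5′ end, to find target mRNAs. Loading into Argonaute protects a mature strand, while the strand from the opposite arm of the hairpin is mostly lost, so the steady-state level of a miRNA reflects both its production and its loading.

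The mature sequences below carry the results. Sequences are from RefSeq with GRCh38.p14 positions, where 330 of the 372 assays matched an entry by name, and the seed, bases 2 to 8, is in capitals. The first set shows miRNAs with large increases and a matched sequence, among them miR-135a-5p and miR-135b-5p, which share a seed.
miR-205-5p: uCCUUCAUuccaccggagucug
miR-135a-5p: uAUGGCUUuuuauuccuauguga
miR-135b-5p: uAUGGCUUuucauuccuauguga
miR-455-5p: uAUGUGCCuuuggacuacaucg
miR-10a-5p: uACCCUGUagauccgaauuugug
miR-143-3p: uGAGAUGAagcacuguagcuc
miR-223-5p: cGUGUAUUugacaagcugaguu
miR-129-5p: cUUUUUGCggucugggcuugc

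The miR-205-5p strand lies at chr1:209432166-209432187 on the plus strand, in MIR205. miR-135a-5p is at chr3:52294270-52294292 and miR-135b-5p at chr1:205448361-205448383, both on the minus strand, in MIR135A1 and MIR135B.

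The second set holds the let-7 5p strands, which share the seed GAGGUAG and differ by few bases outside it.
let-7a-5p: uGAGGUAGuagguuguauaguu
let-7e-5p: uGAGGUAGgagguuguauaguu
let-7f-5p: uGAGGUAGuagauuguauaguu
let-7c-5p: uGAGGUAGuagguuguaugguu
let-7g-5p: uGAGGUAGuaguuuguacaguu

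Against let-7a-5p, counted from 1 at the 5′ end, let-7e-5p has the single change U9G, let-7f-5p has G12A, let-7c-5p has A19G and let-7g-5p has G12U and U18C. An assay can take up some of a near-identical strand, so the values of the let-7 members are uncertain as values of single members.

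The third set holds 5 of the 6 miRNAs with the largest decreases, whose seeds all differ.
miR-218-5p: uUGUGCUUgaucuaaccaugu
miR-338-3p: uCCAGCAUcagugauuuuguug
miR-600: aCUUACAGacaagagccuugcuc
miR-19a-5p: aGUUUUGCauaguugcacuaca
miR-335-3p: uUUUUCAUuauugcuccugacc

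A Ct is the PCR cycle at which a well crosses the threshold, and a lower Ct stands for a higher level. Every Ct over 35 was set to 35, the cap, and the average over 6 control wells of small RNAs (RNU6-2, SNORD61, SNORD68, SNORD72, SNORD95, SNORD96A) on the same array was subtracted. The log2 difference is this normalized Ct without lenalidomide minus that with it, so a positive value means a higher level with the drug. Of the 372 miRNAs, 323 were measured on both arrays, 35 were at the cap without lenalidomide, 1 was at the cap with it and 13 were at the cap on both and have no value. For a miRNA at the cap on 1 array only a bound can be given, and of the 35 at the cap without lenalidomide 20 had a bound above 0.

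The array without lenalidomide was at the end of the range of the 12 arrays. The mean Ct of its control wells was 21.9, the latest of the 12 arrays, against 20.3 with lenalidomide. The next latest of the 12 was 21.1. Of its miRNAs 324 were under Ct 35, the fewest of the 12, against 358 with lenalidomide. Between this pair the Ct of the control wells fell by 1.54 cycles, that of the reverse transcription control by 1.46 and that of the positive PCR control, which carries its own template, by 1.16. The median miRNA fell by 1.73 cycles before normalization. Its part in the results below was not tested. The log2 differences of the 6 control wells had an SD of 0.45, from -0.78 for SNORD95 to 0.45 for RNU6-2, and this SD is the spread used here. It covers the wells of 1 pair of arrays and not separate cultures.

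After lenalidomide, AGO2 cDNA treated My5.CRBN cells had 31 miRNAs at least 3 fold higher (8.64% of the 359 with a value or bound) and 9 lower by the same factor (2.51%). miR-205-5p had the largest increase, and miR-135a-5p, miR-455-5p, miR-10b-5p, miR-375 and let-7e-5p followed. Of the 31, 26 were measured on both arrays and 5 are bounds, and of the 9, 8 were measured on both. A 3 fold change is 1.58 on the log2 scale. Most miRNAs moved less, with 248 of the 323 measured on both arrays (76.8%) within 2 fold and the middle of the distribution between -0.37 and 0.76 (quartiles, median 0.19).

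**Figure D1:**
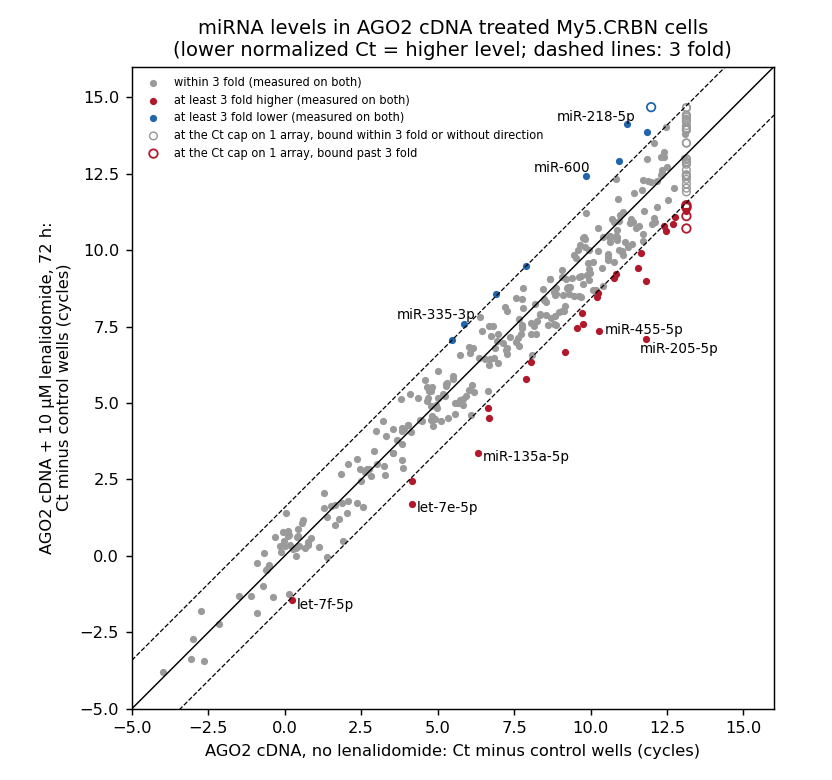
Each point is 1 miRNA, with its Ct minus the mean of the control wells (cycles) without lenalidomide on the x axis and with lenalidomide on the y axis, 1 array each, and open points at the Ct cap on 1 array. The 31 miRNAs at least 3 fold higher lie below the lower dashed line, mostly at a normalized Ct over 6, and the 9 at least 3 fold lower lie above the upper one.

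The split between higher and lower miRNAs depended on the normalizer. With the global mean of the miRNAs in place of the control wells, 16 were at least 3 fold higher and 15 lower. RNU6 alone gave 12 higher and 20 lower, and the 5 wells without SNORD95, the well that moved most, gave 20 and 11. The median of all miRNAs was 0.19 with the control wells and -0.27 with RNU6 alone, so changes are also given below relative to that median, which no normalizer alters. Past 3 fold under each of the 6 normalizers tried were 12 higher and 6 lower miRNAs. The 12 were miR-205-5p, miR-135a-5p, miR-455-5p, miR-10b-5p, miR-375, let-7e-5p, miR-223-5p, miR-10a-5p, miR-143-3p, miR-33a-3p, miR-499a-5p and miR-129-5p, and the 6 were miR-218-5p, miR-338-3p, miR-600, miR-924, miR-19a-5p and miR-335-3p.

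miR-205-5p is best known from epithelial cells, where it acts beside the miR-200 family on the repressors ZEB1 and ZEB2. Its Ct was 33.7 without lenalidomide and 27.4 with it. After normalization this was a log2 difference of 4.72, or 26.4 fold. The normalized Ct of 11.8 without the drug was the highest of the 12 arrays, where the median was 10.5, so its level was lowest on that array. The other strand of the same hairpin, miR-205-3p, had Ct 33.8 and 32.6 and a log2 difference of -0.27. The remaining epithelial miRNAs lay between -0.36 and 0.79, and their list, miR-205-5p included, had a median of -0.08 over the 9 measured on both arrays, 0.27 below the median of all miRNAs.

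miR-135a-5p and miR-135b-5p come from different chromosomes and share the seed AUGGCUU. miR-135a-5p went from Ct 28.2 to 23.7, a log2 difference of 2.97, or 7.82 fold. miR-135b-5p went from 26.03 to 22.8, which is 1.70 or 3.26 fold. Both were under Ct 29 on each array. Among miRNAs with a matched sequence, this was the only seed with at least 2 measured members whose members were all past 3 fold. miR-10b-5p, also past 3 fold, had no matched sequence, so its seed was not compared with that of miR-10a-5p. miR-135b-5p was under 3 fold when normalized to RNU6 alone, to the global mean or to the wells without SNORD95.

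miR-455-5p is made from an intron of the collagen gene COL27A1, and its Ct was 32.1 without lenalidomide and 27.7 with it, a difference of 2.91 on the log2 scale. miR-10a-5p and miR-10b-5p are encoded within the HOXB and HOXD clusters. miR-10a-5p went from 31.6 to 27.9 (2.18) and miR-10b-5p from 33.7 to 29.3 (2.83). The rest of their list, the miR-99, miR-100 and miR-125 assays and miR-10a-3p measured on both arrays, lay between -0.53 and 0.53. The 2 miR-10 5p strands were thus the list's only members past 3 fold, and its median over 10 miRNAs was -0.19.

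miR-375, known from pancreatic islets, had Ct 31.03 and 27.01 and a log2 difference of 2.49. miR-499a-5p, from an intron of the myosin gene MYH7B, had Ct 31.4 and 27.8 (2.11). miR-129-5p, a miRNA of the nervous system, had Ct 29.8 and 26.1 (2.11). Each of these tissue-linked miRNAs had a Ct over 29 without lenalidomide and under 28 with it. The muscle list as a whole had a median of 0.13 over 5 measured miRNAs, with miR-1 at 0.13, miR-133a-3p at -0.02 and miR-133b at -0.61. In the neural list miR-124-3p was at 1.80, from Ct 31.6 to 28.3, while miR-9-5p (0.19) and miR-128-3p (-0.11) stayed within 2 fold.

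miR-143 and miR-145 lie side by side on chromosome 5 and are known from smooth muscle and stromal cells. miR-143-3p had Ct 28.5 without lenalidomide and 24.8 with it, a difference of 2.17. The Ct of miR-145-3p was 36.6, above the cap, without the drug and 31.4 with it, so it was at least 4.07 fold higher. Their partner strands differed less, with 0.82 for miR-143-5p and 0.17 for miR-145-5p. Over the stromal and vascular list, miR-143-3p and miR-145-3p were the only 2 of 10 past 3 fold, beside 8.64% upwards and 2.51% downwards of all miRNAs, and the median of the 9 measured was 0.17, close to that of all miRNAs.

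Blood-lineage miRNAs did not move as 1 group. miR-142-3p, a general marker of blood cells and the miRNA with the lowest Ct of all, 17.9 and 16.5, differed by -0.17, so this mark of hematopoietic cells was present on both arrays. miR-150-5p, a miRNA of mature lymphocytes, was at -0.51. Against these, miR-223-3p of the myeloid lineage went from Ct 29.9 to 26.9 (1.51, just under 3 fold), and its partner miR-223-5p from above the cap to 31.03, at least 5.39 fold higher. Of the erythroid miRNAs, miR-451a was at 1.40 (Ct 31.9 and 29.0), miR-144-5p was at least 3.17 fold higher (Ct 35.5, above the cap, and 31.8) and miR-486-5p was at 0.44. The list's median was 0.14 over 6 measured miRNAs, and 0.78 with the bounds included.

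The let-7 family, whose maturation LIN28 blocks in stem cells, had 10 of its 11 assays above 0, beside 57.6% of all miRNAs, and a median of 0.59, which is 0.40 above the median of all miRNAs. The family's median without AGO2 cDNA, in My5.CRBN cells given the same drug, was -0.19, beside 0.27 for all miRNAs. let-7e-5p had Ct 26.03 without lenalidomide and 22.01 with it, a log2 difference of 2.48. let-7f-5p, among the 12 miRNAs of lowest Ct, had Ct 22.1 and 18.9 (1.69), and let-7a-5p was at 1.37. Other members, which differ from let-7a-5p by 1 to 4 bases, were at 0.99 for let-7c-5p, 0.61 for let-7i-5p, 0.59 for let-7b-5p, 0.40 for let-7d-5p, 0.03 for miR-98-5p and -0.23 for let-7g-5p. let-7e-5p shares its transcript on chromosome 19 with miR-99b-5p (-0.41), miR-125a-5p (-0.09) and miR-125a-3p (-0.41), all of which lay below 0. The normalized Ct of let-7e-5p without lenalidomide, 4.16, was the highest of the 12 arrays, against 1.69 with the drug and a median of 1.92.

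The list of embryonic miRNAs, from the miR-302 and miR-372 loci, had the highest median of the lists, 1.16 over 6 measured miRNAs, 0.97 above that of all miRNAs. With the bounds included the median of the list was 0.80. Of the 6 measured miRNAs, 3 have the seed AAGUGCU. miR-372-3p went from the edge of the cap to Ct 31.6 (1.86), miR-302a-3p from 34.6 to 31.4 (1.68) and miR-302c-3p from 32.1 to 29.04 (1.48). The other 3 are opposite arms without this seed, and they were at 0.83 for miR-373-5p, 0.76 for miR-302b-5p and -0.29 for miR-302a-5p. miR-373-5p, with Ct 22.99 and 20.6, was far from the cap, while the other 5 had a Ct over 32 without lenalidomide. miR-302b-3p and miR-373-3p, which also have the seed AAGUGCU, were at the cap without lenalidomide and at Ct 34.7 and 32.7 with it. With a cap at Ct 32, miR-302a-3p and miR-372-3p have no direction.

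Among the miRNAs of the imprinted cluster on chromosome 14, 3 of the 27 with a value or bound were past 3 fold upwards, beside 8.64% of all miRNAs. Of the 23 measured on both arrays, 17 were above 0, beside 57.6% of all miRNAs, and the median was 0.59. miR-431-5p had Ct 29.9 and 26.7 (1.73), miR-432-5p 32.7 and 29.6 (1.59), and miR-485-5p was at least 3.29 fold higher (Ct 35.2, above the cap, and 31.7). In the same cluster miR-409-3p was at -1.51 and miR-495-3p at -1.38. The placental cluster on chromosome 19 had 5 of 8 assays at the cap without lenalidomide, and its 3 measured members lay between -0.64 and 0.04 (median -0.17).

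Several strands past 3 fold had a later Ct than the other arm of their hairpin on the array without lenalidomide. miR-33a-3p, from an intron of the sterol regulator SREBF2, went from Ct 33.4 to 29.8 (2.12), while miR-33a-5p, at Ct 25.7 and 24.5, was at -0.37. miR-155-3p went from 34.3 to 30.9 (1.86), and miR-155-5p, the strand known in activated B cells, was at 0.21 with Ct 32.7 and 30.98, so with lenalidomide the Ct of both arms was nearly the same. miR-101-5p went from 33.5 to 30.2 (1.76), and miR-101-3p had Ct 22.7 and 20.9. miR-30c-1-3p was at least 3.35 fold higher (Ct 35.4, above the cap, and 31.7), while miR-30c-5p was at -0.83.

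The other miRNAs at least 3 fold higher had differences between 1.62 and 1.86. They were miR-581, miR-190a-5p of a TLN2 intron, miR-708-5p, miR-508-5p, miR-643 and miR-196a-3p, the partner strand of a HOX cluster miRNA. miR-190a-5p, with Ct 28.5 and 25.2, had the lowest Ct of them. Just inside the threshold was miR-432-5p at 1.59 and just outside it was miR-381-3p at 1.58.

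The decreases were fewer and most were in faint miRNAs. miR-218-5p, from introns of SLIT2 and SLIT3, went from Ct 33.1 to 34.4, a log2 difference of -2.91, or 7.49 fold lower. miR-338-3p, from an intron of AATK, had Ct 33.9 without lenalidomide and 35.4, above the cap, with it, so it was at least 6.46 fold lower. miR-600 was at -2.59 (Ct 31.7 and 32.8), miR-924 at -2.02 (33.7 and 34.2) and miR-19a-5p at -1.97 (32.8 and 33.2). In these 5 the raw Ct rose while that of the control wells fell.

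The remaining 4 decreases came from a Ct that hardly moved. miR-335-3p, from an intron of the imprinted gene MEST, had Ct 27.7 and 27.9 and a difference of -1.73, and its partner miR-335-5p was at 0.04. miR-551b-3p had 28.8 and 28.9 (-1.65), miR-221-3p 29.7 and 29.8 (-1.62), and miR-505-3p 27.4 on both arrays (-1.59). miR-221-3p represses the cell-cycle inhibitor CDKN1B, and miR-222-3p, which shares its seed GCUACAU and its transcript, was at -0.07. The last 3 of these decreases were under 3 fold with the reverse transcription control, or with the SNORD wells without RNU6, as normalizer. Under 3 fold, miR-217 (-1.53), miR-1324 (-1.43) and miR-132-3p (-1.40) were also among the 12 largest decreases. miR-24-3p, from Ct 21.9 to 21.7 with a difference of -1.38, was the largest decrease among miRNAs under Ct 24.

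**Figure D2:**
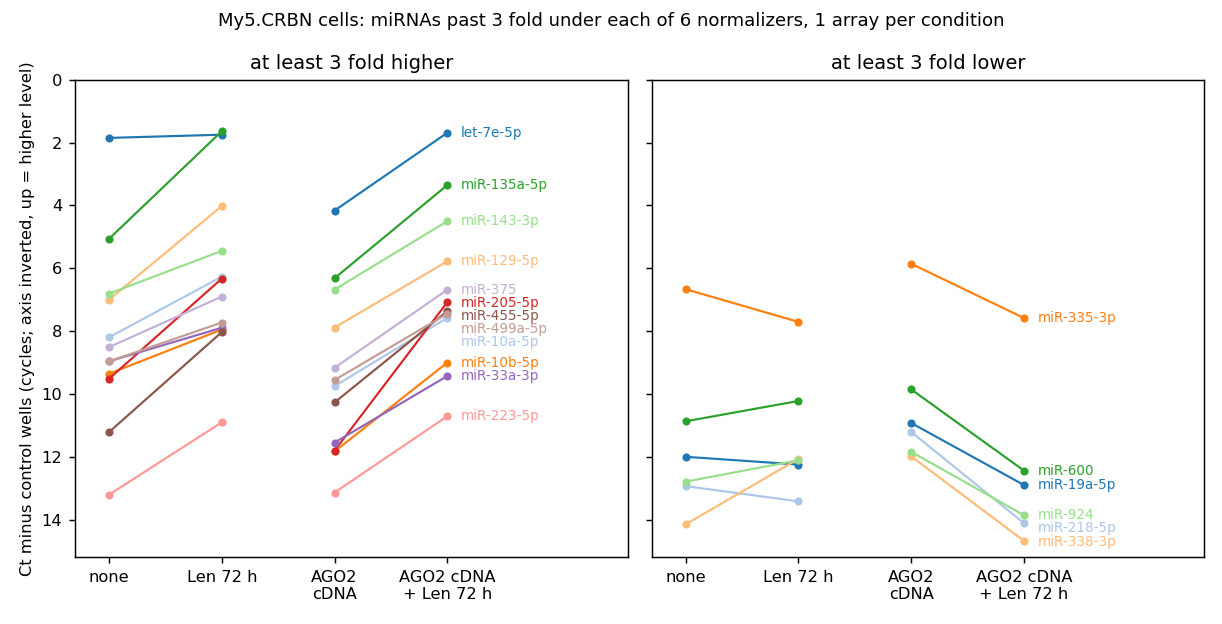
The y axis is the Ct minus the control wells (cycles, inverted so that up is a higher level) on the 4 My5.CRBN arrays, without and with 72 h of lenalidomide (Len), for the 12 miRNAs at least 3 fold higher (left) and the 6 at least 3 fold lower (right) under each of the 6 normalizers. miR-223-5p is at the cap without lenalidomide and miR-338-3p with it in AGO2 cDNA treated cells, and let-7e-5p is nearly level without AGO2 cDNA (1.85 and 1.75) but goes from 4.16 to 1.69 with it.

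By their lower Ct of the 2 arrays, the higher miRNAs had a smaller share under Ct 26 than all miRNAs had. Of the 31 higher, 20 had a Ct under 30 on at least 1 array, 13 a Ct under 28 and 6 a Ct under 26. Of all 359, these were 244, 179 and 130. Without lenalidomide 23 of the 31 had a Ct of 30 or over, as had 179 of all 359, but that Ct is part of what made them higher. Of the 9 lower, 4 had a Ct under 30 and 2 a Ct under 28 on an array. Sorted by their Ct on the untreated My5.LV array, which is neither of the 2 arrays of this comparison, the median log2 difference was -0.08 for the 56 miRNAs under Ct 22, 0.38 for the 53 from Ct 26 to 28, 0.51 for the 70 from 28 to 30 and -0.29 for the 15 from 32 to 35. The class from Ct 28 to 30 held 12 of the higher miRNAs. GC content of the mature strand was available only for miRNAs with a matched sequence, and bounds were left out. The GC classes therefore lack some called miRNAs, such as miR-10b-5p and miR-375. By GC content the medians were 0.07 under 40% GC, 0.11 from 40% to 50%, 0.16 from 50% to 60% and 0.24 at 60% or over. In the same order, 8 of 59, 9 of 100, 6 of 100 and 0 of 33 miRNAs were past 3 fold upwards, and 3, 3, 1 and 0 were past it downwards.

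The miRNAs of lowest Ct were mostly within 2 fold. For the 12 of lowest Ct the log2 differences ran from -0.91 for miR-20a-5p to 1.69 for let-7f-5p. miR-21-5p, an oncogenic miRNA of MM and of many other tumors, had Ct 18.8 and 16.9 and a difference of 0.31. miR-16-5p, which acts on BCL2 and cyclins, was at -0.27, and its relative miR-195-5p, which shares the seed, at 0.96.

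The proliferation-linked cluster of miR-17 to miR-92a on chromosome 13, a MYC target, had a lower median than all miRNAs. Its 10 assays had a median of -0.79 and ran from -1.97 for miR-19a-5p to 0.07 for miR-19a-3p. Among them miR-19b-3p and miR-92a-3p are also encoded in the paralog cluster on the X chromosome. miR-18a-3p was at -1.33, miR-20a-3p at -1.10, miR-20a-5p at -0.91, miR-92a-3p at -0.66 and miR-17-5p at -0.15. The wider list with the paralog clusters had 10 of 23 measured miRNAs above 0 and a median of -0.18, 0.37 below that of all miRNAs. In My5.CRBN cells without AGO2 cDNA its median was -0.25, beside 0.27 for all miRNAs. In the paralog cluster on chromosome 7, of miR-106b, miR-93 and miR-25, the median was 0.00.

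Of the other families, miR-29 and miR-30 had a median of -0.27 over 12 miRNAs, with the miR-30a, miR-30c and miR-30e 5p strands between -0.83 and -0.30 and the miR-29 3p strands between 0.13 and 0.39. The miR-181 family, linked to lymphoid development, had its 4 strands of the 5p arm between 0.63 and 1.41, and the list of myeloma miRNAs that holds it a median of 0.49 over 11. miR-26a-5p (0.97) and miR-26b-5p (1.41), which share the seed UCAAGUA, were also above the median. The list of miR-23, miR-24, miR-26 and miR-27 as a whole was at 0.05.

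In the rest of the lists the only members past 3 fold were miR-155-3p and miR-508-5p. miR-15, miR-16, miR-195, miR-103 and miR-107 had a median of -0.16 over 9 and the miR-301, miR-130, miR-148 and miR-152 list -0.15 over 7, which is 0.35 and 0.34 below the median of all miRNAs. The medians were -0.01 over 4 for the NF-kB-linked miR-155 and miR-146 list and 0.24 over 8 for the p53-linked list. Within the p53-linked list miR-34a-5p, a direct p53 target, was at 1.12. The miR-424 cluster was at 0.41 over 4, and the miR-506 to miR-514 cluster at 0.39 over 4. Of the liver list, miR-122-5p was at the cap without lenalidomide and miR-122-3p at the cap on both arrays.

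**Figure D3:**
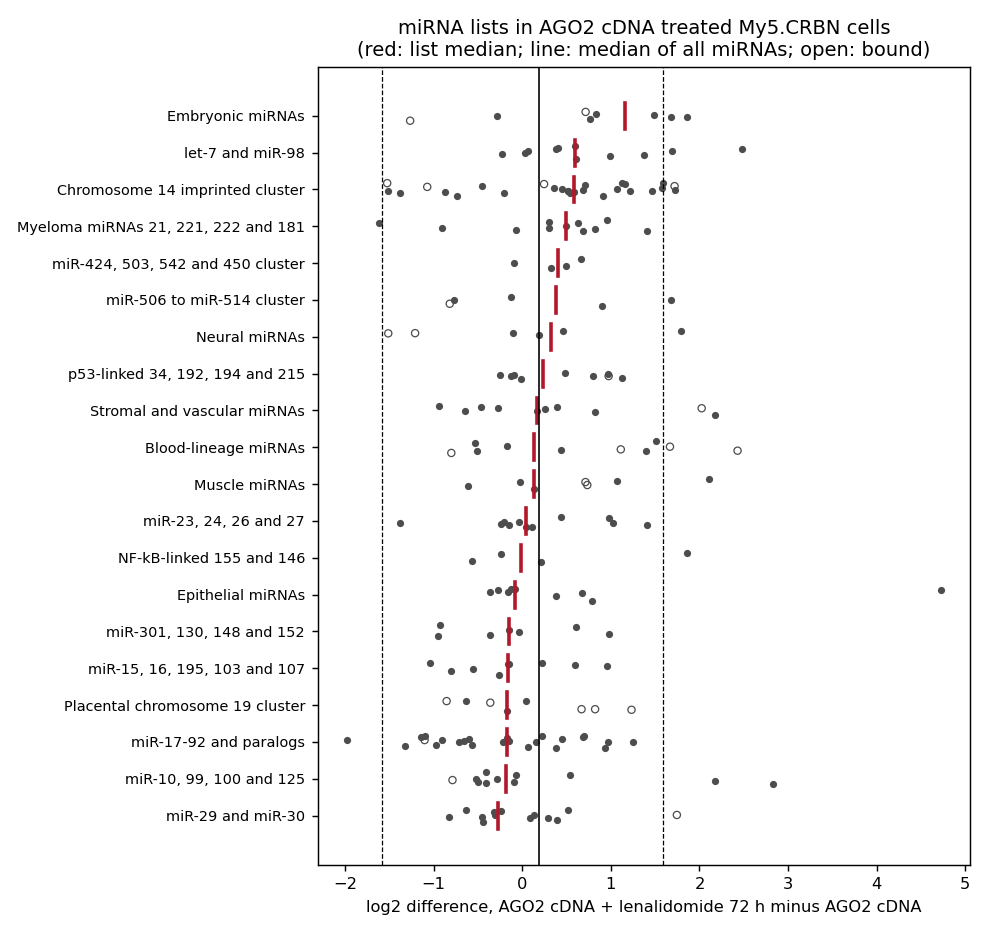
The x axis is the log2 difference (72 h of lenalidomide minus none, AGO2 cDNA treated My5.CRBN cells) of each miRNA of 20 lists, with open points for bounds and the list medians, over miRNAs measured on both arrays, as red bars. The median is highest for the embryonic list (1.16) and lowest for miR-29 and miR-30 (-0.27), the median of all miRNAs is the solid line at 0.19, and miR-205-5p stands alone at 4.72 in the epithelial list.

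The array holds both arms of 86 hairpins, and both were measured on both arrays for 67. The arms lay within 2 fold of each other in 47 of the 67 and at least 3 fold apart in 10, with a median absolute difference of 0.51. In no hairpin were both arms past 3 fold in the same direction. miR-205 had the widest gap, 4.72 for the 5p and -0.27 for the 3p arm. In miR-10a the 5p arm was at 2.18 and the 3p arm at -0.28 (Ct 33.5 and 32.3). In miR-33a, miR-302a, miR-224, miR-155 and miR-139 the 3p arm was the higher one.

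**Figure D4:**
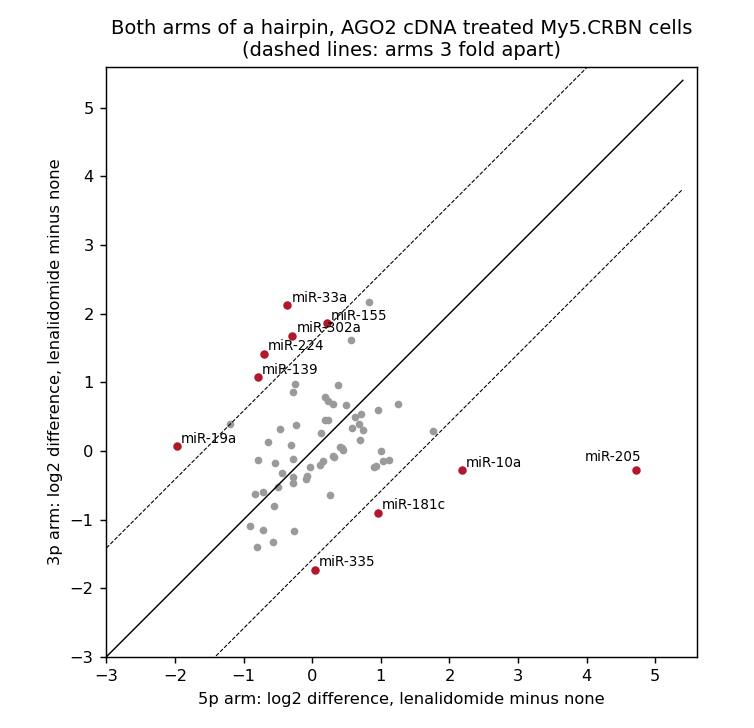
Each point is a hairpin, with the log2 difference (lenalidomide minus none) of its 5p arm on the x axis and of its 3p arm on the y axis, 1 array per condition. Of 67 hairpins, the 10 named ones lie outside the dashed lines, which mark arms 3 fold apart, and miR-205 lies farthest to the right.

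The same 72 hours of lenalidomide without AGO2 cDNA, in My5.CRBN cells, were measured on another pair of arrays, and the 2 comparisons share no array. There 37 miRNAs were past 3 fold upwards (10.1%) and 1 downwards (0.272%), with a control well SD of 0.22. These counts were 19 and 3 with the global mean and 28 and 2 with the reverse transcription control as normalizer. Of the 31 miRNAs higher with AGO2 cDNA, 11 were also at least 3 fold higher without it, which is 35.5% of the 31 and 29.7% of the 37. They were miR-205-5p, miR-135a-5p, miR-135b-5p, miR-455-5p, miR-10a-5p, miR-375, miR-129-5p, miR-223-5p, miR-145-3p, miR-144-5p and miR-508-5p. The 26 higher miRNAs measured on all 4 arrays had a median of 1.12 in cells without AGO2 cDNA, against 0.27 for all miRNAs there. Over 320 miRNAs, which share the array design and their levels, Pearson's r between the differences was 0.41 and Spearman's rho 0.38, as a description.

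For the miRNAs high in both, the levels can be set side by side. miR-205-5p went from Ct 30.3 to 25.4 without AGO2 cDNA, a log2 difference of 3.19, beside 4.72 with it. miR-135a-5p went from 25.9 to 20.7 (3.43, beside 2.97) and miR-455-5p from 32.01 to 27.1 (3.18, beside 2.91). miR-129-5p was at 2.99 beside 2.11. The response with AGO2 cDNA minus that without it was 1.54 for miR-205-5p, -0.46 for miR-135a-5p, -0.28 for miR-455-5p and -0.88 for miR-129-5p, and these differences were not tested. The SD of the same difference over the 6 control wells was 0.55.

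The arrays of CRBN-low My5.LV cells gave a different picture for these miRNAs. In My5.LV cells without AGO2 cDNA, lenalidomide left 2 miRNAs past 3 fold upwards (0.549% of 364) and 2 downwards (0.549%), of which 0 were past it in the same direction here, and r over 322 miRNAs was 0.06. In My5.LV cells with AGO2 cDNA, 1 was higher (0.273% of 366) and 35 were lower (9.56%), and r was 0.08. That split also depended on the normalizer, with 5 higher and 18 lower for the global mean, 7 and 16 for the reverse transcription control and 1 and 73 for RNU6 alone. miR-205-5p was at 0.52 and 0.10 in the 2 My5.LV comparisons, miR-135a-5p at 1.14 and -0.35, miR-455-5p at 0.88 and 0.19, and let-7e-5p at -0.02 and -0.32. Of the 9 lower miRNAs, miR-221-3p, miR-335-3p and miR-924 were also lower past 3 fold when AGO2 cDNA treated My5.LV cells were given the drug, 33.3% of the 9 and 8.57% of the 35. With 1 array per condition the difference between the cell lines was not tested.

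**Figure D5:**
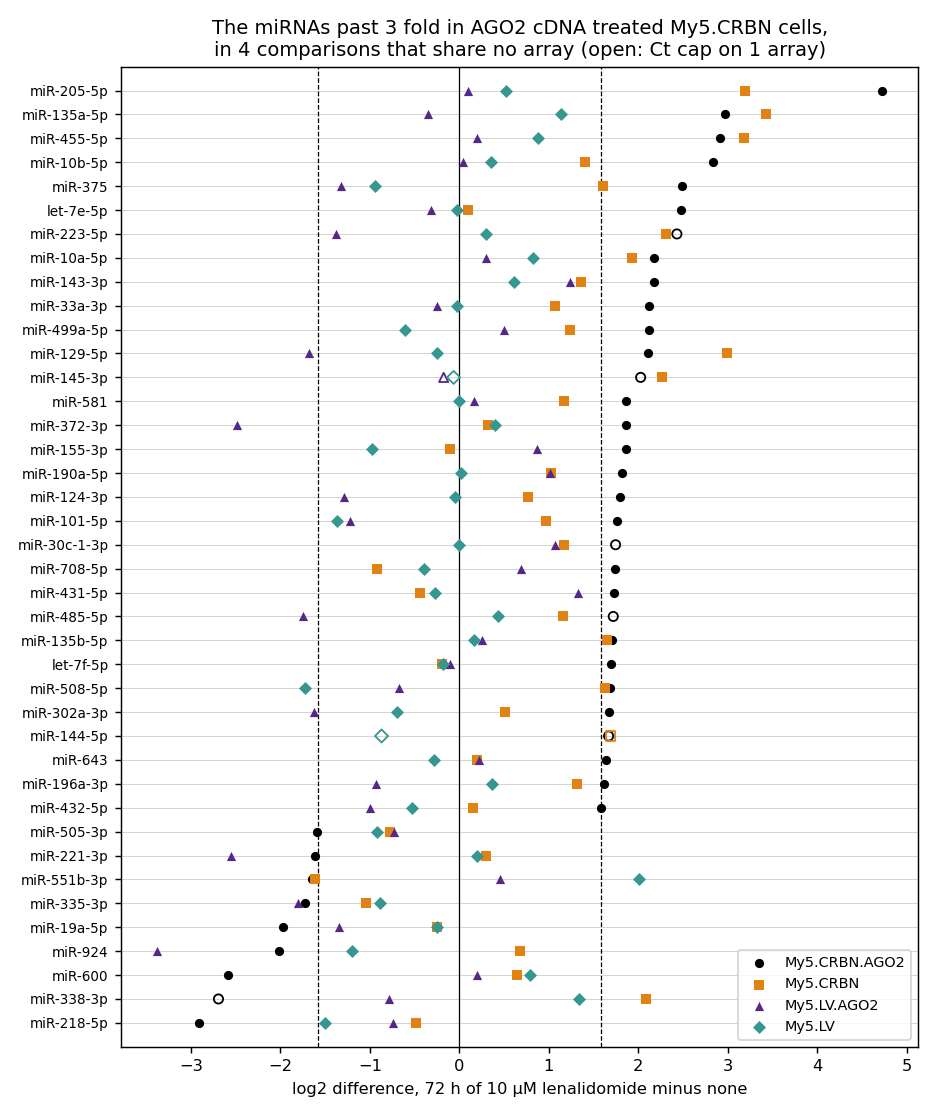
The x axis is the log2 difference (72 h of 10 μM lenalidomide minus none) of the 31 higher and 9 lower miRNAs, 1 per line, in 4 comparisons that share no array, with open symbols for bounds and dashed lines at 3 fold. The black points chose the miRNAs, 11 of the 31 orange squares (My5.CRBN without AGO2 cDNA) also lie at or past the right dashed line, and no symbol of My5.LV or My5.LV.AGO2 does so among the 31 higher miRNAs.

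The responses with and without AGO2 cDNA were also subtracted from each other. Over 320 miRNAs under the cap on all 4 arrays the response with AGO2 cDNA minus that without it had a median of -0.08. It was past 3 fold upwards for 9 miRNAs and downwards for 25, and 236 (73.8%) were within 2 fold. Higher with AGO2 cDNA were miR-708-5p (1.73 with and -0.92 without), let-7e-5p (2.48 and 0.10), miR-376a-3p (1.16 and -1.05), miR-431-5p (1.73 and -0.44), miR-192-3p (0.97 and -1.20) and miR-155-3p (1.86 and -0.11). Lower with it were miR-125a-3p (-0.41 and 3.20), miR-600 (-2.59 and 0.65), miR-924 (-2.02 and 0.68), miR-409-3p (-1.51 and 1.18), miR-134-5p (0.51 and 3.13) and miR-1265 (0.46 and 3.07). let-7e-5p had the lowest Ct of these 12, and let-7f-5p had a similar pattern (1.69 and -0.19).

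The array that stood apart from the other 3 differed between these miRNAs. let-7e-5p had normalized Ct values of 1.85 without treatment, 1.75 with lenalidomide and 1.69 with AGO2 cDNA and lenalidomide, against 4.16 with AGO2 cDNA alone. miR-708-5p had its lowest level on that array too (10.2, against 7.39 to 8.48 on the other 3), as had miR-431-5p, miR-155-3p and miR-376a-3p. miR-125a-3p stood apart with lenalidomide and no AGO2 cDNA, at 5.58 against 8.66 to 9.07, and so did miR-134-5p (5.92 against 9.04 to 9.68) and miR-1265 (8.81 against 10.9 to 11.9). miR-600 and miR-924 were lowest with AGO2 cDNA and lenalidomide, at 12.4 and 13.9, and highest with AGO2 cDNA alone, at 9.85 and 11.8. Of the 26 higher miRNAs under the cap on the 4 arrays, 23 had their lowest level on the array with AGO2 cDNA alone, and all 8 such lower miRNAs had their highest level there. Among all 320 miRNAs the lowest level was on that array for 45.3% and the highest for 23.4%. That array enters the comparison that chose these miRNAs, so the counts are a description.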

How the data were processed

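RNA of My5.CRBN cells with AGO2 cDNA, without and with lenalidomide, was measured on 1 array each. Per the labels, the authors isolated total RNA with the miRNeasy Mini kit, reverse transcribed it with the miScript II RT kit and ran miScript SYBR Green PCR arrays. The deposited Ct values, as the authors made them, are threshold cycles per well with no normalization, and the threshold setting is not given in the sources used here. The deposited table of fold changes holds the authors' own comparisons and was not used.

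Ct values over 35 or undetermined were set to 35, the average of the 6 small-RNA wells was subtracted, and arrays were differenced. Medians are over miRNAs measured on both arrays. miRNAs past 3 fold were counted, and a bound was counted only in its own direction. With 1 array per condition no test was made, and arrays have no sequencing depth, so their number limits the precision. Wells in duplicate differed by 0.0947 and 0.103 cycles (reverse transcription control) and 0.285 and 0.169 cycles (positive PCR control) on the 2 arrays.

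Named miRNAs were the 12 largest changes each way among those under Ct 35 on both arrays, those past 3 fold with a Ct under 28 on an array, bounds past 3 fold, their other arms, members of 21 lists, the 12 of lowest Ct, and the 6 largest differences each way from the response without AGO2 cDNA. Chosen after seeing their values were miR-101-5p, miR-643, miR-196a-3p, miR-224, miR-139, miR-24-3p and the miRNAs at the edges of the threshold. The members and lists were chosen with earlier results of these data known. Alternatives were 5 other normalizers, a Ct cap of 32, filters on Ct, counting of capped miRNAs and other fold thresholds. The method was tested on simulated data. Values were computed in Python 3.11.15 with pandas 2.3.3 and NumPy 2.4.6, and figures drawn in Matplotlib 3.10.9.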

Additional observations from a re-analysis of the deposited data

Results flagged for a closer look

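For 7 of the 31 higher and 9 lower miRNAs, the 72 hour lenalidomide difference was past 3 fold in the opposite direction in another cell population, on arrays not shared. In My5.LV cells with AGO2 cDNA, 4 of the 31 were lower past 3 fold, beside 9.56% of all miRNAs there. In My5.CRBN cells without AGO2 cDNA, 1 of the 9 was higher, beside 10.1% of all. In My5.LV cells it was 1 of the 31 and 1 of the 9, beside 0.549% of all in each direction. With 1 array per condition none of these differences was tested. miR-338-3p was at -2.69 (a bound) here and at 2.08 in My5.CRBN cells without AGO2 cDNA. Against My5.LV cells, miR-508-5p was at 1.68 here and at -1.72 there, and miR-551b-3p at -1.65 here and at 2.01 there. Against My5.LV cells with AGO2 cDNA, miR-129-5p was at 2.11 here and at -1.68 there, miR-302a-3p at 1.68 and -1.62, miR-372-3p at 1.86 and -2.49, and miR-485-5p at 1.72 (a bound) and -1.75. Of these, miR-129-5p and miR-338-3p were past 3 fold here under each of the 6 normalizers. Their opposite values are given with the control wells only, and a change of normalizer shifts all values of a comparison alike. In My5.LV cells with AGO2 cDNA the median of all miRNAs was -0.30 with the control wells. It was 0.09 with the global mean and 0.16 with the reverse transcription control, so decreases near 3 fold there depend on the normalizer.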

How the results depend on the processing

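No paired analysis was possible because each condition has 1 array. The control array without lenalidomide is a single well per miRNA, with the latest control wells of the study, and no alternative replaces it. Higher and lower counts (31 and 9) were 16 and 15 with the global mean, 12 and 20 with RNU6 alone, and 20 higher without SNORD95, an alternative chosen after seeing the data. They were 15 and 5 with a cap at Ct 32, 20 and 4 for miRNAs under Ct 30 on at least 1 array, 61 and 22 past 2 fold, and 13 and 4 past 4 fold. No called miRNA changed sign under any normalizer. At a cap of Ct 32 the miRNAs at the cap without lenalidomide have fewer measured values by construction.

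With RNU6 alone the median of all miRNAs was -0.27. The list medians then were 0.14 (let-7), -0.63 (miR-17 cluster and paralogs), -0.62 (miR-15, miR-16, miR-195, miR-103 and miR-107), -0.0488 (miR-424 cluster), -0.72 (miR-29 and miR-30), -0.41 (miR-23, miR-24, miR-26 and miR-27), -0.61 (miR-301, miR-130, miR-148 and miR-152), 0.035 (myeloma), -0.22 (p53), -0.47 (NF-kB), -0.64 (miR-10, miR-99, miR-100 and miR-125), -0.32 (blood), -0.54 (epithelial), -0.32 (muscle), -0.13 (neural), -0.29 (stromal), 0.70 (embryonic), -0.63 (chromosome 19), 0.13 (chromosome 14) and -0.0695 (miR-506 to miR-514). All these lists shifted together. Other settings moved single lists. The stromal median was -0.37 at a cap of Ct 32 and for miRNAs under Ct 30, where the epithelial median was 0.68 and that of miR-506 to miR-514 1.68. With bounds at their value, also an alternative chosen after seeing the data, the blood median was 0.78, the muscle median 0.71 and that of miR-506 to miR-514 -0.13, and counting miRNAs at the cap on both arrays gave 0.78 for blood and -0.13 for miR-506 to miR-514.

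Among miRNAs under Ct 30 on all arrays compared, r was 0.22 with the My5.LV comparison and 0.20 with that of My5.LV cells with AGO2 cDNA. With RNU6 alone the response with AGO2 cDNA minus that without it was at least 3 fold higher for 5 miRNAs and lower for 41, with a median of -0.57.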
